A study of Mus musculus with 27 samples.

Results

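The 9 genes BC018473, Gdpd3, Nell1, Baiap2l1, H2az1, Abca17, Ankrd63, 1810037I17Rik and 5830417I10Rik were taken from 20239 named genes because 2 to 5 of the strains shared one level and the remaining strains another. They were selected on their measured strain levels, so these levels are given as a description, with no test. RNA of the right lung was measured in female mice of 11 weeks, 3 mice for each of 9 inbred strains, on 27 Affymetrix Mouse Gene 1.0 ST arrays. The labels name no treatment or transgene and describe every tissue as normal lung. Each strain also carried a class, increased or decreased, for the severity and for the frequency of spontaneous pulmonary adenoma, a benign lung tumour. A/J, C57BL/6J and DBA/2J were classed as increased in both. C57L/J, C3H/HeJ, BALB/cJ and 129S1/SvlmJ were classed as increased in severity and decreased in frequency. KK/HlJ and MRL/MpJ were classed as decreased in both. The class describes the strain, and no tumour of the mice measured was recorded in the labels.

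Inbred mouse strains are fixed for 1 set of alleles each, so a gene under strong inherited control can stand at a few discrete levels, each shared by several strains. Strains that descend from the same founders often share a stretch of chromosome, and with it the allele of every gene in that stretch. On an array, the signal of a gene depends on the amount of transcript and on how well the strain's own sequence matches the probes, which are designed on a reference sequence. The share of each in these values was not tested.

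All values are log2 signal as deposited, so a difference of 1 is a doubling. Arrays of a strain correlated at 0.984 to 0.997. The lung held its defining cell types on every array, with array medians of 11.18 to 11.72 for alveolar type II markers, 9.02 to 9.84 for alveolar type I markers, 12.51 to 13.00 for club cell markers and 10.80 to 11.21 for endothelial markers. C3H/HeJ replicate 2 stood apart, with a skeletal muscle median of 9.58 against 5.31 and 5.15 in the other C3H/HeJ mice, and an adipocyte median of 8.51 against 6.22 and 6.63. In C57L/J replicate 3 the adipocyte median was 7.78, against 6.60 and 6.08 in the other C57L/J mice. Leaving out C3H/HeJ replicate 2 moved the C3H/HeJ mean of the 9 genes by 0.03 to 0.14, and leaving out C57L/J replicate 3 moved the C57L/J mean by 0.01 to 0.25. Neither changed a strain's level. In whole lung, fewer cells of a type and less RNA per cell cannot be told apart. Genes of the Y chromosome, absent from these females, marked the background. Eif2s3y, Uty and Kdm5d had strain means of 2.50 to 3.56, and Sry had 4.78 to 5.25, so above 3.56 this range rests on Sry alone.

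For each gene the strain means were put in order and divided at the widest gap. Of all named genes 35, or 0.173%, had a gap of at least 1 with 2 to 5 strains above it, and the 9 genes are among them. Arrays above the gap and arrays below it did not overlap for any of the 9. The narrowest distance between the lowest array above and the highest array below was 0.73, in Abca17, and the widest was 3.59, in BC018473. The upper level was held by 2 strains for BC018473, Nell1 and H2az1, and by 3 strains for Gdpd3, Baiap2l1, Ankrd63 and 1810037I17Rik. For Abca17 and 5830417I10Rik it was held by 5 of the 9 strains, so in these genes it was the lower level that the smaller number of strains shared.

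**Figure D1:**
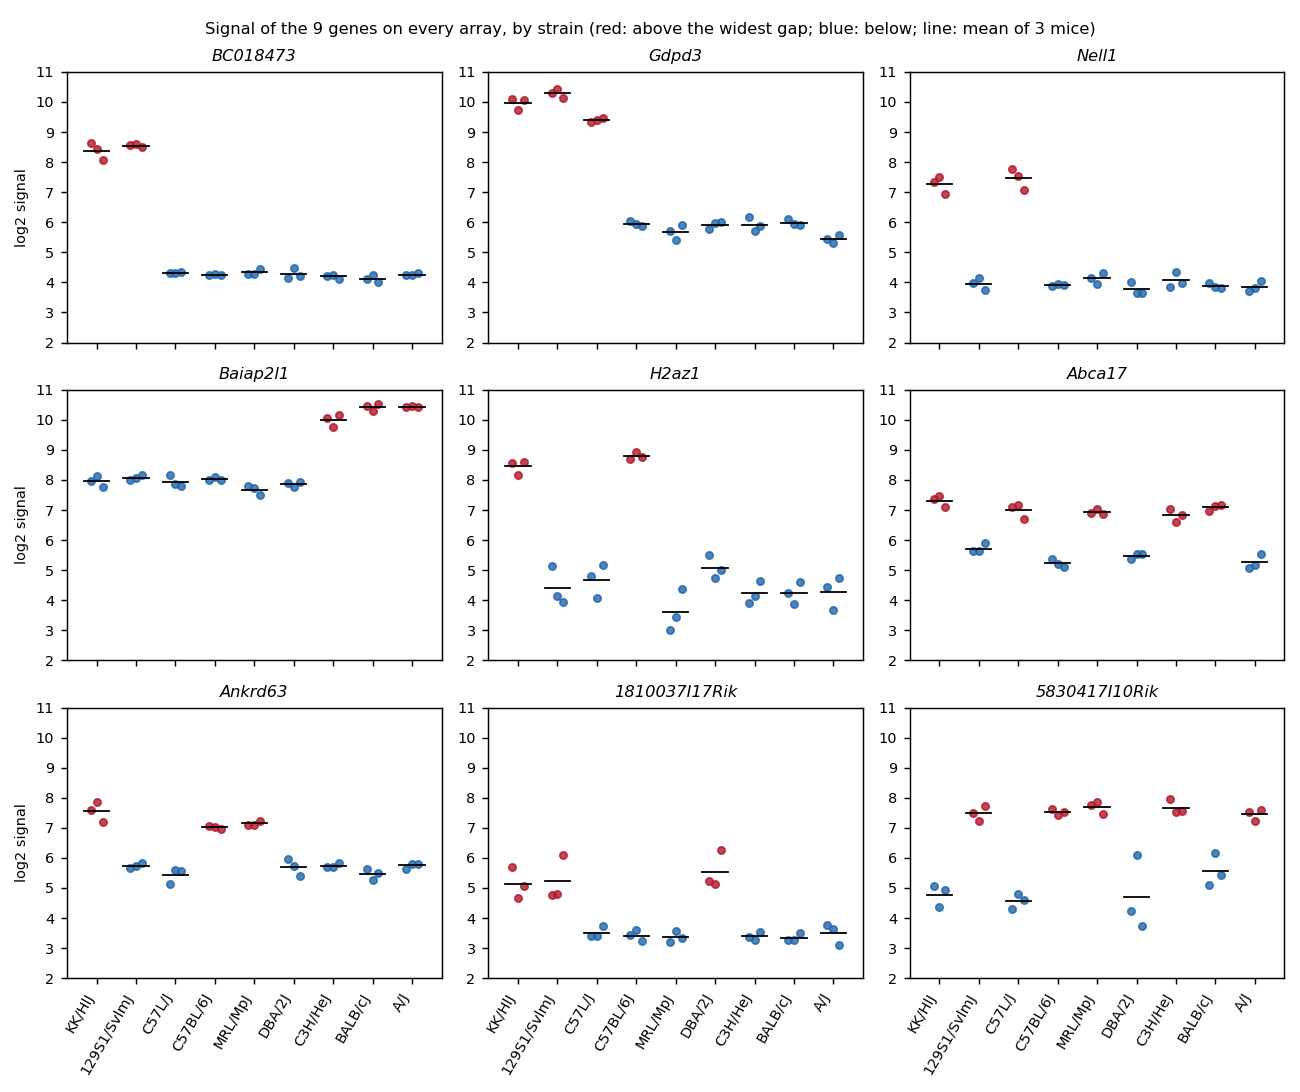
Log2 signal (vertical axis) of the 9 genes on each of the 27 arrays, by strain (horizontal axis); red points lie above the gene's widest gap, blue points below it, and lines are means of 3 mice. No red point lies as low as a blue one in any panel, and the closest approach, 0.73, is in Abca17.

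Gdpd3 and Abca17 act on lipids. Gdpd3 encodes a lysophospholipase D, an enzyme that releases lysophosphatidic acid, a lipid that signals through its own cell-surface receptors. Gdpd3 read 10.30, 10.44 and 10.13 in 129S1/SvlmJ, 10.09, 9.72 and 10.06 in KK/HlJ, and 9.35, 9.39 and 9.48 in C57L/J. The 18 arrays of the other 6 strains ran from 5.31 to 6.17 with a median of 5.89. The gap of 3.43 between C57L/J and the highest of the lower strains, BALB/cJ at 5.97, is 10.8-fold. Within the upper level the strains were not alike, since every 129S1/SvlmJ array lay above every KK/HlJ array, and the 3 C57L/J arrays lay lowest.

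The Gdpd3 promoter window, 250 bases before to 50 after the gene's start, is shown because C57BL/6J, the strain of the reference sequence, stood at the lower level of this gene. It is taken from RefSeq on GRCm38.p6, chr7:126766164-126766463, plus strand. It holds 7 CpG dinucleotides, the median of all 32851 promoter windows, and none of 3 motifs searched on both strands. These were the TATA box as TATAAA (present in 13.6% of the windows), the CCAAT box (in 37.4%) and the Sp1-type GC box as GGGCGG (in 35.7%).
Gdpd3: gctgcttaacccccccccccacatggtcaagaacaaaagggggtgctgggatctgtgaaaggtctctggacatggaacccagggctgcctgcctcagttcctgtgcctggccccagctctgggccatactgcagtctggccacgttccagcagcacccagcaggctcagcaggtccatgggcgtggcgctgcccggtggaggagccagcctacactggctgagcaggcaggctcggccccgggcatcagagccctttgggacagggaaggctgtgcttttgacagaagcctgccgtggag

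Abca17, on chromosome 17, encodes an ATP-driven transporter of the lipid-exporting ABCA family, best known in mouse from the testis. KK/HlJ held the highest Abca17 mean of the upper strains, with 7.37, 7.47 and 7.09 on its arrays. Over the 15 arrays of KK/HlJ, BALB/cJ, C57L/J, MRL/MpJ and C3H/HeJ the signal ran from 6.62 to 7.47 with a median of 7.03. In the 12 arrays of 129S1/SvlmJ, DBA/2J, A/J and C57BL/6J it ran from 5.08 to 5.89 with a median of 5.46. The lowest means, 5.23 in C57BL/6J and 5.26 in A/J, lay at the highest Sry mean of 5.25, so this level reached the background. The gap of 1.11 is 2.16-fold and the narrowest of the 9. 129S1/SvlmJ was the highest of the lower strains at 5.72 ± 0.15 (SD, n = 3), and C3H/HeJ the lowest of the upper strains at 6.83 ± 0.20 (n = 3), or 6.93 without replicate 2. C57L/J averaged 6.98 ± 0.25 (n = 3), or 7.13 without replicate 3.

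Nell1 and Baiap2l1 act outside the cell and at its membrane. Nell1 encodes a secreted protein with EGF-like repeats that promotes bone formation. Nell1 read 7.77, 7.53 and 7.08 in C57L/J and 7.35, 7.51 and 6.95 in KK/HlJ. The other 21 arrays ran from 3.65 to 4.34 with a median of 3.95. The arrays of C57L/J and KK/HlJ overlapped each other. The lowest C57L/J value is that of replicate 3, with high adipocyte markers, and the C57L/J mean was 7.46 with it and 7.65 without it. The gap was 3.14, or 8.80-fold in signal. All 7 lower means, 3.78 to 4.14, lay within the range of the Y-linked genes, so the gap does not measure the difference in transcript.

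The Nell1 promoter window (RefSeq, GRCm38.p6, chr7:49975100-49975399, plus strand) is shown as a second gene that is low in the reference strain. Capitals mark the GC box and the CCAAT box on either strand, and the window holds 28 CpG dinucleotides, more than the upper quartile of 20 over all windows.
Nell1: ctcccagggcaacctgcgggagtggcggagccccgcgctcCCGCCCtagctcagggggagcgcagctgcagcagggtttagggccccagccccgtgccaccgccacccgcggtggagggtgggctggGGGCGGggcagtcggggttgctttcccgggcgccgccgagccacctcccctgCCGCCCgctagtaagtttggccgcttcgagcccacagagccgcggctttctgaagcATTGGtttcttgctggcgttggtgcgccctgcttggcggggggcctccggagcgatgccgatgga

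Baiap2l1, on chromosome 5, encodes an I-BAR protein, also called IRTKS, that bends the cell membrane and links it to actin. Its signal was 10.43, 10.46 and 10.42 in A/J, 10.45, 10.29 and 10.53 in BALB/cJ, and 10.05, 9.77 and 10.16 in C3H/HeJ. The 18 other arrays ran from 7.49 to 8.16 with a median of 7.95. A/J and BALB/cJ overlapped, and the 3 C3H/HeJ arrays lay below both. Baiap2l1 is the only one of the 9 whose upper strains did not include KK/HlJ or C57BL/6J, and both of its levels were far above the Y-linked genes. Its gap was 3.77-fold.

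H2az1 encodes H2A.Z, a histone variant placed at promoters and needed for mouse development. It read 8.71, 8.91 and 8.77 in C57BL/6J and 8.56, 8.18 and 8.61 in KK/HlJ. The 21 other arrays ran from 3.03 to 5.49 with a median of 4.39. The gap was 3.38, or 10.4-fold in signal. The lower means of 3.62 to 5.07 fell within the range of the Y-linked genes, so the gap does not measure the difference in transcript. Mice of a lower strain varied widely, with an SD of up to 0.70 in MRL/MpJ. H2az2, which encodes the closely similar second H2A.Z protein, had strain means from 8.64 in DBA/2J to 8.24 in C3H/HeJ and differed among strains (F test, adjusted p = 0.00871), with a span of 0.40. H2az1 has processed copies elsewhere in the mouse genome, and the share of its signal that came from such copies was not tested.

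Here the reference strain held the upper level, and the H2az1 window is shown beside those of Gdpd3 and Nell1 for that reason (RefSeq, GRCm38.p6, chr3:137864237-137864536, plus strand). Capitals mark the CCAAT box and the GC box on either strand, and it holds 34 CpG dinucleotides.
H2az1: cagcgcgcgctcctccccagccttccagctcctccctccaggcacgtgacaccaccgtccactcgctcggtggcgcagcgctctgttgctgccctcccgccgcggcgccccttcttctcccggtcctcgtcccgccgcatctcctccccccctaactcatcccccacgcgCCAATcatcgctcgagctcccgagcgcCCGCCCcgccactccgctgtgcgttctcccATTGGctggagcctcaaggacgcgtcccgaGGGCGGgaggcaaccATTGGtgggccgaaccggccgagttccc

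Ankrd63 encodes a protein built of ankyrin repeats. Ankrd63 read 7.61, 7.85 and 7.20 in KK/HlJ, 7.10, 7.10 and 7.24 in MRL/MpJ, and 7.05, 7.03 and 6.98 in C57BL/6J. The 18 other arrays ran from 5.14 to 5.95 with a median of 5.67. The gap was 1.27, and all levels lay above the strain means of the Y-linked genes. KK/HlJ and MRL/MpJ overlapped, while C57BL/6J lay below both.

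The Ankrd63 window (RefSeq, GRCm38.p6, chr2:118703914-118704213, minus strand) is the other one shown for a gene at its upper level in the reference strain. Capitals mark the TATA box and the GC box on either strand, and it holds 24 CpG dinucleotides. It is the only one of the 7 windows on hand for the 9 genes with a TATA box by those letters.
Ankrd63: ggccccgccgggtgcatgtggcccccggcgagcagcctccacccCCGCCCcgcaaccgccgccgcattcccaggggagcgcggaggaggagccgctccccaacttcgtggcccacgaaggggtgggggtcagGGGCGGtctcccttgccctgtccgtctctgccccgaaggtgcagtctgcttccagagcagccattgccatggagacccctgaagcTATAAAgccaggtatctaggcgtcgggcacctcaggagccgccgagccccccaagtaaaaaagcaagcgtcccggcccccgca

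The remaining 3 genes are little characterised. BC018473 is annotated as a long noncoding RNA on chromosome 11, and its measured gap was the widest of the 9. BC018473 read 8.56, 8.60 and 8.50 in 129S1/SvlmJ and 8.64, 8.42 and 8.06 in KK/HlJ. The 21 other arrays ran from 3.997 to 4.47 with a median of 4.25, within the range of the Y-linked genes. The gap was 4.04, or 16.4-fold in signal. As in Nell1 and H2az1, the lower level lay in that range, so the order of these 3 in transcript difference is not settled. The pooled SD among mice was 0.13.

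1810037I17Rik, a protein-coding gene on chromosome 3, read 5.24, 5.13 and 6.26 in DBA/2J, 4.75, 4.81 and 6.09 in 129S1/SvlmJ, and 5.69, 4.66 and 5.06 in KK/HlJ. The 18 other arrays ran from 3.09 to 3.75 with a median of 3.40. Its lower level lay among Eif2s3y, Uty and Kdm5d, and its upper means of 5.13 to 5.54 lay around the highest Sry mean of 5.25. It was the dimmest of the 9. The 3 upper strains overlapped each other.

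5830417I10Rik, annotated as a transcribed pseudogene on chromosome 3, ran from 7.22 to 7.95 with a median of 7.54 over the 15 arrays of MRL/MpJ, C3H/HeJ, C57BL/6J, 129S1/SvlmJ and A/J. The 12 other arrays ran from 3.74 to 6.15 with a median of 4.87. The upper level was tight and the lower level was not. DBA/2J read 4.24, 6.11 and 3.74, an SD of 1.25 (n = 3) that is the largest of any strain in the 9 genes, and BALB/cJ read 5.11, 6.15 and 5.43. C57L/J and KK/HlJ read 4.31 to 5.06. These strains overlapped each other, the BALB/cJ arrays lay above both, and the DBA/2J arrays overlapped all 3.

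KK/HlJ held the upper level of 7 of the 9 genes, and 129S1/SvlmJ of 4. C57BL/6J, C57L/J, C3H/HeJ and MRL/MpJ held it in 3 each, A/J and BALB/cJ in 2 each, and DBA/2J in 1, 1810037I17Rik. Over all 35 genes with such a gap, the 9 included, the share at the upper level was highest in KK/HlJ, 57.1%. It was 42.9% in C57BL/6J, 40% in 129S1/SvlmJ and 11.4% in BALB/cJ. Of the 35 genes 26 are not among the 9, so these shares are partly set by the 9 themselves. Abca17 and Ankrd63 were the genes at the upper level in both KK/HlJ and MRL/MpJ. C57BL/6J and KK/HlJ shared the upper level of H2az1 and Ankrd63 and no other.

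A/J and C3H/HeJ were at the same level in 8 of the 9 genes and differed only in Abca17. BALB/cJ and C3H/HeJ were also together in 8 and differed only in 5830417I10Rik. A/J and KK/HlJ shared a level in 0 of the 9, and C3H/HeJ and KK/HlJ in 1, Abca17. Over the 35 genes, which include the 9, the same pairs were together in 91.4%, 80%, 37.1% and 40%. These shares are therefore no independent background for the 9. C57BL/6J and C57L/J shared a level in 3 of the 9, BC018473, Baiap2l1 and 1810037I17Rik, in each case at the lower level, and in 25.7% of the 35 genes.

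Across the 9 strain means, the pair of genes most alike was BC018473 and Gdpd3 (Pearson r = 0.82), both high in 129S1/SvlmJ and KK/HlJ. Gdpd3 and Nell1 (r = 0.69) share KK/HlJ and C57L/J. The pair most opposed was Nell1 and 5830417I10Rik (r = -0.64), since both strains high in Nell1 were low in 5830417I10Rik. Each r is a description over 9 points that share their arrays.

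**Figure D2:**
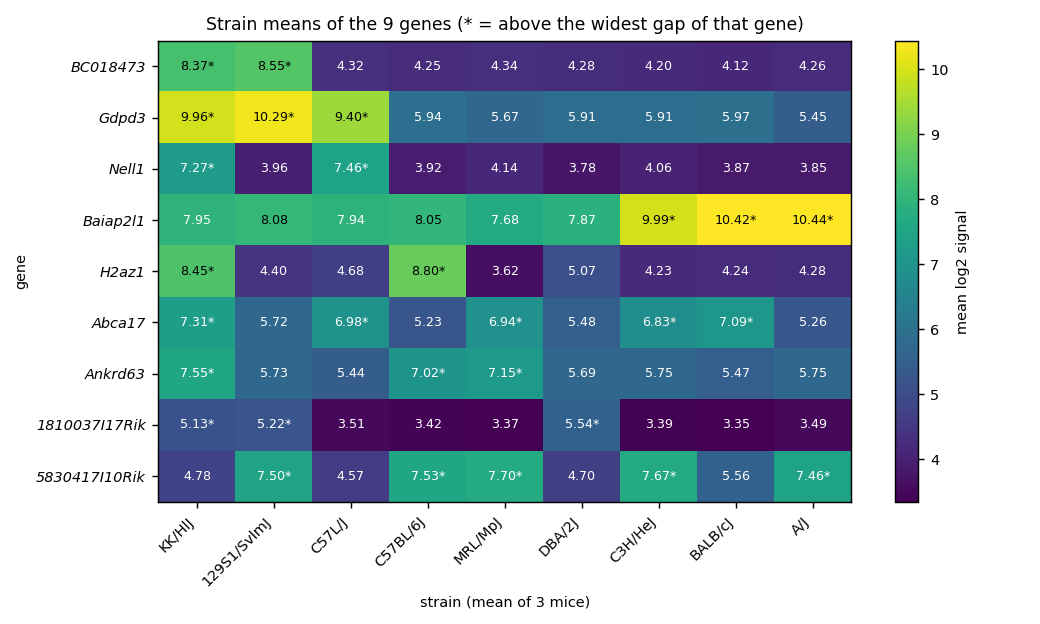
Mean log2 signal (colour and number) of the 9 genes (rows) in the 9 strains (columns), 3 mice each; a star marks a mean above the gene's widest gap. The KK/HlJ column carries 7 stars and the DBA/2J column 1.

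The genes on the chromosome beside each of the 9 were not used to choose them, so their strain differences could be tested. The 5 named measured genes on each side, 90 in all, were tested for a difference among the 9 strains with limma's moderated F test, and p-values were adjusted over all named genes by the Benjamini-Hochberg method. Of the 90, 36 passed at an adjusted p under 0.05, which is 40% against 28.9% of all genes tested. With the further condition that the strain means span at least 1 on the log2 scale, 4 of 90 passed, against 3.93% of all genes. The median span of the 90 was 0.39, close to the 0.34 of all genes, while the spans of the 9 genes themselves were all over 2. None of the 90 had a gap of at least 1 with the upper strains of its member.

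**Figure D3:**
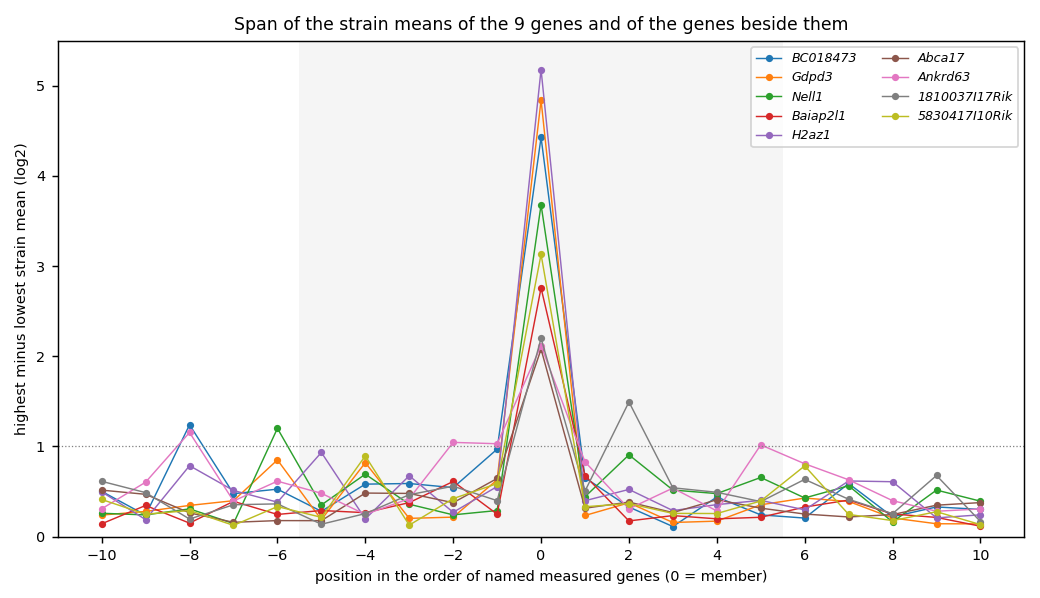
Span of the strain means (highest minus lowest, log2, vertical axis) for each of the 9 genes at position 0 and for the named measured genes to each side of it in gene order (horizontal axis); the shaded band holds the 5 on each side that were tested and the dotted line marks a span of 1. The lines peak at position 0, and 4 genes in the band pass the dotted line, 3 of them beside Ankrd63 and 1, Myoz2, beside 1810037I17Rik.

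The region of Ankrd63 on chromosome 2 differed most from this picture, with 8 of its 10 neighbours called. Ccdc9b, 3 genes away, was the only one of the 90 whose widest gap set off the same strains as its member. It had 7.44 in MRL/MpJ, 7.39 in C57BL/6J and 7.39 in KK/HlJ, against 6.91 to 7.16 in the other strains, a far smaller step than in Ankrd63 (r = 0.94, F adjusted p = 5.56e-05). Bub1b, a kinase of the mitotic spindle checkpoint, also went with Ankrd63 (r = 0.89), and ran from 6.30 in C57BL/6J to 5.25 in 129S1/SvlmJ (adjusted p = 2.22e-07). Pak6, a protein kinase gene, went the other way (r = -0.93), with 6.24 in C57L/J and 5.21 in KK/HlJ (adjusted p = 5.22e-06). Disp2 had 6.44 in C3H/HeJ and 5.43 in BALB/cJ (adjusted p = 4.79e-07), and its upper strains were those of Ankrd63 together with C3H/HeJ. Each r was taken over 9 strain means.

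Around each of the other genes fewer neighbours were called than around Ankrd63. The widest span of the 90, 1.49 in Myoz2, was nevertheless beside 1810037I17Rik. St6galnac2, a sialyltransferase gene next to BC018473, spanned 0.97, with 9.12 in 129S1/SvlmJ and 8.15 in MRL/MpJ (adjusted p = 6.22e-09), and 3 of the 10 genes around BC018473 were called. Around Gdpd3 2 of 10 were called, around Nell1 4, around H2az1 2, around Abca17 6, around 1810037I17Rik 6 and around 5830417I10Rik 4. The fewest calls were around Baiap2l1, with 1 of 10 neighbours called and a median span of 0.26 among them. Abca3, the surfactant lipid transporter of alveolar type II cells, lies next to Abca17 and spanned only 0.31 (adjusted p = 0.0165), with r = -0.20 to Abca17. Myoz2, a muscle gene beside 1810037I17Rik, was highest in C3H/HeJ at 7.33, against 5.84 in BALB/cJ (adjusted p = 0.000194). Replicate 2, the C3H/HeJ mouse with high muscle markers, read 8.18 there, and without it the C3H/HeJ mean was 6.91, below MRL/MpJ at 7.20. Cardiac muscle markers went with Myoz2 in some strains and not in others. Their array medians were 9.24 to 9.58 in MRL/MpJ and 9.15 to 9.67 in A/J, where Myoz2 was high. They were 8.19 to 8.71 in BALB/cJ, where it was lowest. In C3H/HeJ, also among the upper strains of Myoz2, they were only 8.795 to 8.83. In KK/HlJ, not among those strains, they were 8.86 to 9.22. The part of cardiac muscle in the result was not tested.

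Related genes of 5 members were examined as lists, 63 of 66 being measured. In all, 28 of the 63, or 44.4%, passed the F test (28.9% of all genes did), and 3 of them spanned at least 1. The median span, 0.34, was that of all genes.

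In the list for Gdpd3, which holds family members along with lysophospholipid enzymes and receptors, 10 of 15 genes were called. Gdpd2, a related phosphodiesterase gene, had the widest span, 2.06, but its order was not that of Gdpd3, with 7.96 in C57BL/6J and 5.90 in KK/HlJ (adjusted p = 3.58e-15). Plpp1, whose product breaks down lysophosphatidic acid outside the cell, ran from 10.85 in DBA/2J to 9.85 in A/J (adjusted p = 7.03e-09). Among lysophosphatidic acid receptors, Lpar6 spanned 0.75 (adjusted p = 8.80e-06), while Lpar1 did not pass (adjusted p = 0.108).

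None of the 6 Nell family and binding partner genes passed, the widest being Robo2 with a span of 0.60. Of the I-BAR family and its actin partners 7 of 11 passed, with no span of 1, and the widest was Eps8, which read 8.13 in KK/HlJ and 7.34 in 129S1/SvlmJ (adjusted p = 9.90e-07). Of the histone H2A variants and the machinery that exchanges H2A.Z 6 of 16 passed. Macroh2a2 alone spanned at least 1 there, with 6.64 in BALB/cJ and 5.51 in C57L/J (adjusted p = 0.0112). Of the ABCA transporters 5 of 15 passed, the widest being Abca5 with a span of 0.64.

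The genes most like each member were sought by the correlation of 9 strain means among 943 genes that span at least 1. H2az1 was matched closest, by Trim12a (r = 0.98), Trim30d (r = 0.98) and Rpl29 (r = 0.98). Trim12a and Trim30d belong to a cluster of TRIM genes, and Rpl29 encodes a protein of the large ribosomal subunit. Each had the upper strains of H2az1, C57BL/6J and KK/HlJ, with gaps of 5.30 in Trim12a, 2.69 in Trim30d and 1.89 in Rpl29. Nxpe4 had the same upper strains and a gap of 3.09. The highest lower means of these genes, 2.87 to 4.72, lay within the range of the Y-linked genes. All 4 gaps are therefore differences of signal and do not measure a difference in transcript. None of the 4 lies on chromosome 3 with H2az1: the TRIM genes are on chromosome 7 and the others on chromosome 9.

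Ankrd63 was matched by Fabp12 (r = 0.90), Rps6 (r = 0.90) and its neighbour Bub1b (r = 0.89). Rps6, a ribosomal protein gene on chromosome 4, shared the upper strains of Ankrd63 with a gap of 2.08. Its upper means started at 6.79 and its lower means ended at 4.71, within the range of the Y-linked genes. This gap too does not measure a difference in transcript. Ribosomal protein genes such as Rps6 and Rpl29 have many processed copies in the genome, as H2az1 has, and the part of such copies was not tested. For the other 7 genes no gene had the same upper strains with a gap of at least 1.

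BC018473 was nearest to Klra17 (r = 0.94), Bche (r = 0.93) and Cybrd1 (r = 0.89), and Gdpd3 to F10 (r = 0.93), Klra17 (r = 0.84) and Akr1c14 (r = 0.82). Klra17 is a Ly49-family receptor gene, and its highest mean was 4.56, within the range of the Y-linked genes. F10 encodes coagulation factor X and ran from 8.03 in KK/HlJ to 6.49 in BALB/cJ. Nell1 was nearest to Zmat4 (r = 0.88), Rsph1 (r = 0.86) and Clec10a (r = 0.84), and Baiap2l1 to Wfdc6a (r = 0.90), Tifab (r = 0.79) and Cd72 (r = 0.78). The r of Wfdc6a over the 27 single arrays was only 0.68. The highest means of Wfdc6a and Clec10a, 5.57 and 5.67, lay little above the highest Sry mean of 5.25. Abca17 was nearest to Ifi44l, Trdc and Igkv4-62 (r = 0.85 each). Over the 27 single arrays these r were lower, 0.79 for Ifi44l, 0.60 for Trdc and 0.57 for Igkv4-62. The highest Igkv4-62 mean was 4.55, within the range of the Y-linked genes. 1810037I17Rik was nearest to Flrt3 (r = 0.84), Sfi1 (r = 0.82) and Samd5 (r = 0.82). 5830417I10Rik had the weakest matches, Ccdc184 (r = 0.74), Vipr2 (r = 0.72) and Hc (r = 0.70). Of these 27 matches 1, Bub1b, is on the chromosome of its member. With 9 points and 943 candidates a high r is a description only.

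The study asked whether lung expression differs between strains of differing adenoma class. The strain is the unit here, so the 3 arrays of each were averaged and limma was fitted to the 9 strain means, with adjustment over all named genes. In this fit none of the 9 genes was called in any of the 3 comparisons at an adjusted p under 0.05. Their adjusted p ran from 0.521 to 0.977 for severity, from 0.647 to 0.993 for frequency and from 0.404 to 0.998 for both. Of all genes 0.00988%, 0% and 0.00494% were called in these comparisons. At an unadjusted p under 0.05, 1, 1 and 2 of the 9 passed, against 7.04%, 7.7% and 8.62% of all genes. The calls depended on the fit. With the 27 single arrays and the strain as a random block, which assumes 1 correlation within strains for all genes, limma called Ankrd63 for severity (adjusted p = 0.000792) and Abca17 for frequency (adjusted p = 0.000181). For both, that fit called Ankrd63 (adjusted p = 0.0141) and Abca17 (adjusted p = 5.85e-05). The 9 genes were chosen for levels shared by the mice of a strain. A correlation common to all genes can be too low for them and make their p too small. These calls therefore lend no support to a class difference. The share of all genes called by that fit is not given here.

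Ankrd63 came nearest for severity. It averaged 5.83 ± 0.54 in the severity-increased strains (SD, n = 7) and 7.35 ± 0.29 in the severity-decreased strains (n = 2). The difference was -1.52 (95% interval -2.28 to -0.75, limma adjusted p = 0.521). The 7 increased means ran from 5.44 to 7.02 and the 2 decreased ones from 7.15 to 7.55, so the classes did not overlap, with C57BL/6J the highest increased strain and MRL/MpJ the lower decreased one. Ankrd63 was the only one of the 9 without overlap in severity, where 6.69% of all genes have none. Without C57BL/6J the difference was -1.71 (limma adjusted p = 0.00172). C57BL/6J is the only severity-increased strain at the upper level of Ankrd63, a gene chosen for that division, so leaving it out makes the division match the class by construction and lends no support to a class difference. In frequency Ankrd63 differed by -0.03 (adjusted p = 0.993).

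Abca17 came nearest for frequency. It averaged 5.32 ± 0.14 in the frequency-increased strains (SD, n = 3) and 6.81 ± 0.56 in the frequency-decreased strains (n = 6). The difference was -1.49 (95% interval -2.12 to -0.85, limma adjusted p = 0.647), and Abca17 ranked 3 by p among all genes. The increased means ran from 5.23 to 5.48, near the highest Sry mean of 5.25. The decreased ones ran from 5.72 to 7.31, with 129S1/SvlmJ lowest. It was the only one of the 9 without overlap in frequency, where 3.92% of all genes have none. Without 129S1/SvlmJ the difference was -1.70 (limma adjusted p = 0.00176). That strain is the only frequency-decreased one at the lower level of Abca17, so this value too follows from the choice of the gene and lends no support.

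Between strains increased in both and strains decreased in both, Abca17 averaged 5.32 ± 0.14 (n = 3) and 7.12 ± 0.26 (n = 2), a difference of -1.80 (limma adjusted p = 0.404). Ankrd63 averaged 6.15 ± 0.75 and 7.35 ± 0.29, a difference of -1.20 (limma adjusted p = 0.510). Here BC018473, Nell1, Abca17 and Ankrd63 had no overlap, 4 of 9, where 27% of all genes have none with so few strains. For BC018473 and Nell1 the decreased class held both levels, KK/HlJ the upper and MRL/MpJ the lower one. 129S1/SvlmJ is in neither of these classes, and without it the Abca17 difference was still -1.80 with an adjusted p of 0.00934, since that strain then no longer adds to the residual spread. Without C57BL/6J, again the strain at odds with the division, Ankrd63 differed by -1.63 with a limma adjusted p of 0.0397. Neither value without a strain lends support to a class difference.

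In every comparison at least 1 class held both levels of each gene, Ankrd63 included. The sole exception was Abca17 between the strains increased in both and those decreased in both. Gdpd3 differed by -2.10 for frequency (95% interval -4.59 to 0.39, limma adjusted p = 0.681), with all 3 increased strains at its lower level but BALB/cJ, C3H/HeJ and MRL/MpJ there too. Baiap2l1 differed by 1.15 for severity (95% interval -0.57 to 2.87, limma adjusted p = 0.802), with A/J, BALB/cJ and C3H/HeJ high and the remaining 4 increased strains at the level of the decreased strains. The median absolute difference of the 9 genes was 1.04, 1.11 and 1.20 in the 3 comparisons, against 0.0711, 0.0682 and 0.0917 over all genes. Since the 9 were chosen for wide strain differences, their size against all genes is no finding. Positive differences numbered 2, 4 and 3 of 9.

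**Figure D4:**
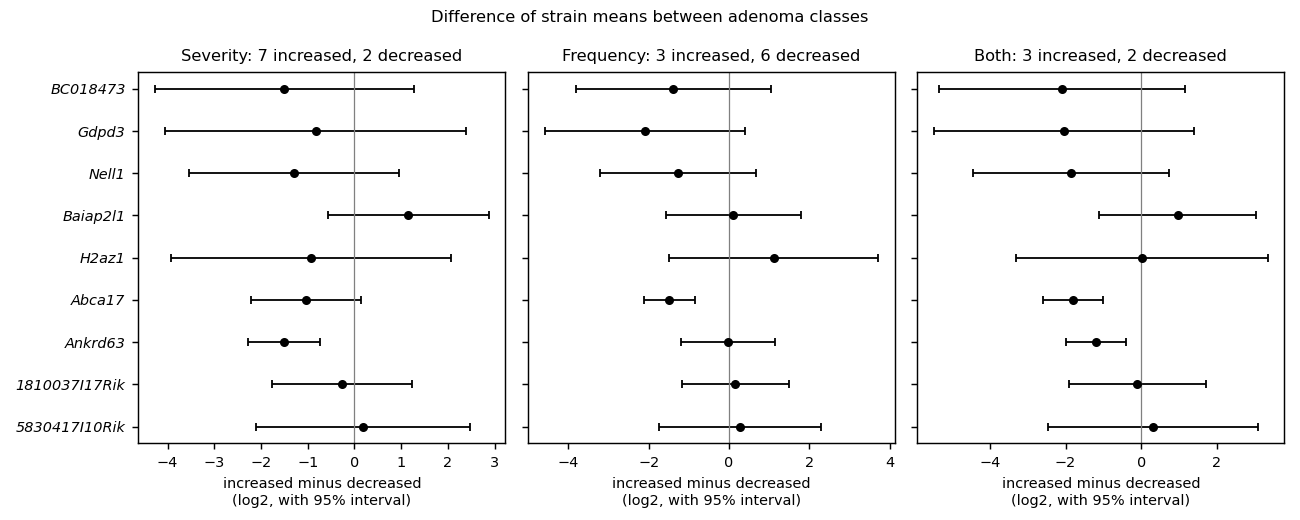
Difference of strain means (log2, increased minus decreased, horizontal axis) for the 9 genes in the 3 adenoma class comparisons, with limma's 95% interval as bars; the number of strains in each class stands above each panel. The intervals clear of 0 are those of Ankrd63 for severity, Abca17 for frequency and both for the strains classed alike in both, and none of these passed the adjustment over all genes.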

How the data were processed

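The submitters deposited log2 signal for 21225 probe sets on 27 arrays. They were made with affy, per the submitters' processing notes. Neither its version nor the normalization method was given in the sources used here. Array medians of the deposited log2 values ran from 6.24 to 6.37, so the values were used as deposited. No column of per-sample values was left unused. The probe table gave 20239 probe sets a single gene symbol, none shared, and 986 none; the unnamed were left out of the main tests. Names and gene order come from RefSeq's GRCm38.p6 tables.

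The 9 genes and the gene lists were chosen with earlier results of these data known. Strain levels are described by the widest gap between ordered strain means, with no test. limma 3.58.1 in R 4.3.3 gave a moderated F test over 9 strains on 27 arrays, and class comparisons on 9 strain means, all with Benjamini-Hochberg adjustment over the 20239 named genes. Calls are at an adjusted p under 0.05. Each fit was first run on simulated data with known changes.

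Genes named besides the 9 are the 3 closest by correlation to each, the 5 named genes on each side, those with the same upper strains, and related genes that passed with a span of at least 1. Ccdc9b, St6galnac2, Abca3, Lpar1 and Lpar6, H2az2 and the widest gene of each list were named after their values were seen. Per the series' design text the replicates are 3 separate females of a strain, and the p-values of the F test measure the spread between these mice. Those of the class comparisons measure the spread between strains, with 2 to 7 strains in a class. The number of arrays limits the precision. Alternatives were quantile normalization, median centring, leaving out genes whose highest strain mean is under 6, all probe sets, a trended robust prior, array weights (F test only), 3 or 10 neighbours a side, the strain as a random block, the replicate number as a block, and leaving out each array and each strain. Run numbers in the array names follow the strains, so run and strain cannot be told apart.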

Additional observations from a re-analysis of the deposited data

Results flagged for a closer look

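Within the adenoma classes of 4 to 10 strains, 6 of 18 sets of strain means held a strain far from the others by Dixon's criterion. Chance gives about 1 in 20, but the 9 genes were chosen for such steps, so the number is no finding. Among the severity-increased strains, BC018473 was far higher in 129S1/SvlmJ (8.55) than in the next strain (4.32), and Nell1 in C57L/J (7.46) than in the next (4.06). In the same class C57BL/6J stood above the others in H2az1 (8.80, next 5.07) and in Ankrd63 (7.02, next 5.75). Among the frequency-decreased strains, KK/HlJ was far highest in H2az1 (8.45, next 4.68), and 129S1/SvlmJ was far lowest in Abca17 (5.72, next 6.83).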

How the results depend on the processing

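The strains at the upper level of each of the 9 genes were the same in all 261 recomputations by quantile normalization, median centring or without 1 array. The 9 were chosen for this division and their arrays did not overlap across it. These recomputations could therefore hardly change it, and their outcome is no separate support. With 27 arrays and the strain as a random block, 1, 1 and 2 genes were called for severity, frequency and both, as against 0 in each with strain means. They were Ankrd63 (adjusted p = 0.000792), Abca17 (0.000181), and both for the last (0.0141 for Ankrd63 and 5.85e-05 for Abca17). That fit gives every gene 1 shared correlation within strains, which can be too low for genes chosen for levels shared within strains. The replicate number added as a block also gave 1, 1 and 2, with adjusted p of 0.00207, 0.000603, 0.0258 and 0.000199. The share of all genes called by these block fits is not given here, and their calls lend no support to a class difference. Deviations of arrays with the same number correlated at -0.27 to 0.28 and 11 of 27 arrays were closest to their own number, so the numbers do not pair the mice. Leaving out 1 array or 1 strain gave 0 to 1 calls in each comparison. Calls came only without C57BL/6J or 129S1/SvlmJ, the strains at odds with the division that chose the gene, and lend no support. The share of all genes called in these refits is not given here either. Of the genes beside the 9, 24 of 54 were called with 3 on each side and 62 of 180 with 10, a difference of construction, and 31 to 39 of 90 without 1 array. Of the related genes 23 to 31 were called without 1 array.

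Differences that changed sign when an array or strain was left out had these ranges. For severity they were -3.52 to 0.52 in BC018473, -2.97 to 1.31 in Gdpd3, -2.86 to 0.28 in Nell1, -3.35 to 1.48 in H2az1, -1.15 to 0.62 in 1810037I17Rik and -1.27 to 1.64 in 5830417I10Rik. For frequency they were -0.72 to 0.56 in Baiap2l1, -0.26 to 2.00 in H2az1, -0.46 to 0.25 in Ankrd63, -0.54 to 0.52 in 1810037I17Rik and -0.22 to 1.20 in 5830417I10Rik. For both they were -4.19 to 0.0947 in Gdpd3, -2.40 to 2.43 in H2az1, -0.98 to 0.78 in 1810037I17Rik and -1.14 to 1.78 in 5830417I10Rik. With median centring the frequency difference of Ankrd63 was 0.00076, against -0.03 as reported. The cause of these changes was not tested, and none of these differences was called.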
